A study of Mus musculus with 6 samples.

Results

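The 8 genes described here encode the SUMO proteins SUMO2 and SUMO3, both subunits of the SUMO-activating E1 enzyme (Sae1 and Uba2) and the 4 PIAS ligases (Pias1 to Pias4). They were taken by gene name and are 8 of the 19680 rows of the deposited table. All 8 passed the filter on low values. SUMO is a small protein that is joined to lysines of other proteins. The E1 enzyme, a pair of SAE1 and UBA2, activates it, an E2 enzyme takes it over, and E3 ligases such as the PIAS proteins help to place it on targets. Proteases of the SENP family remove it again, and SUMO-modified proteins include transcription and DNA repair factors. Germinal center (GC) B cells divide fast while they mutate and switch antibody genes, and depend on such factors.

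RNA was sequenced from sorted splenic GC B cells (B220+ CD38- FAS+) of C57BL/6 mice aged 6 to 8 weeks. All mice had received 100 µg of the protein antigen NP-CGG intraperitoneally 14 days earlier. The 3 WT libraries came from Senp1flox/flox mice, which carry loxP sites around part of the SUMO protease gene Senp1 and no Cre, and the 3 cKO libraries from Senp1flox/flox Cγ1-Cre mice. Cγ1-Cre is active in B cells that transcribe the IgG1 constant region, so B cells that do not do so keep the gene. The floxed alleles are shared by both groups, the Cre is not, so an effect of the Cre itself and of the deletion cannot be told apart. Whether each library is 1 mouse is not stated, and every p-value therefore refers to the spread between libraries. Fewer cells of a type and less RNA per cell cannot be told apart in these bulk samples.

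The libraries held 3019152 to 10339054 gene-assigned reads, with replicate 1 of each group the deepest. On the first principal component (33.2% of the variance) replicate 1 of WT and of cKO lay together at -54.4 and -49.1, and cKO replicate 2 at the other end at 56.2. The mitochondrial share of reads was 2.71%, 7.92% and 9.83% in WT replicates 1, 2 and 3 and 3.66%, 12.3% and 19.1% in cKO. It was thus lowest in both replicate 1 libraries and, at each replicate number, higher in cKO than in WT. cKO replicates 2 and 3 also had the fewest reads (3019152 and 3082897). Genotype therefore cannot be told apart from depth and mitochondrial share in these libraries. All 12 GC B cell markers were in the table, and the only one at 0 in any library was Mef2b, in WT replicates 2 and 3. Senp1 stood at 915, 868 and 891 normalized counts in the WT libraries and at 373, 425 and 398 in the cKO libraries. Its RNA was thus lower in every cKO library than in any WT library. Loss of the floxed exons themselves cannot be seen in counts of whole genes. Values below are normalized counts, which are reads scaled by each library's size factor. They are listed in the order of replicates 1, 2 and 3.

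Sumo2 and Sumo3 are close copies. Their coding sequences were identical at 83.0% of 282 aligned bases in GENCODE M21 (GRCm38), and the longest run of identical bases shared by their main transcripts was 17 bases. The first 60 coding bases are shown because they hold the site through which SUMO2 and SUMO3 can form chains. The capitals mark codon 11, a lysine inside a valine-lysine-any-glutamate stretch. The codon is the same in both genes, while 23 of the 60 positions compared without gaps differed. From about position 43 the sequences are offset by a codon that Sumo2 has in addition, which raises this count.
Sumo2: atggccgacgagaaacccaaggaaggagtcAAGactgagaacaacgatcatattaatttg
Sumo3: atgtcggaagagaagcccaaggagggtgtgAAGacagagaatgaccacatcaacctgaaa

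Longer stretches shared with other annotated genes bear on the counts, because a read that matches several places can be dropped or split. How the authors treated such reads is not known here. For Sumo2, 13 other annotated genes matched at least 50% of the coding sequence at 90% identity or more. Of these, 8 had rows in the table. Together those rows held 6 to 44 reads per library, or 1.12% to 2.53% of the sum with Sumo2. Sumo3 had 2 such look-alikes and no row for either. The counts of both genes are therefore uncertain by any reads of shared sequence, and how many were lost was not tested. The longest runs shared between coding sequences of PIAS genes were 11 to 19 bases.

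None of the 8 genes differed between cKO and WT beyond the spread of the libraries. By limma 0 of 8 passed an adjusted p under 0.05 over the 14678 genes tested, where the share called among all genes was 0%. At an unadjusted p under 0.05 the count was again 0 of 8, against 5.15% of all genes. The WT and cKO libraries overlapped for all 8, and they did not overlap for 11.6% of all genes. The median absolute log2 fold change was 0.11 for the 8 genes, 0.14 for the 7163 genes with a mean at least as high as that of Pias3, the lowest of the 8, and 0.22 for all genes tested. The fitted difference was positive for Sumo3, Pias3 and Pias4 and negative for the other 5.

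**Figure D1:**
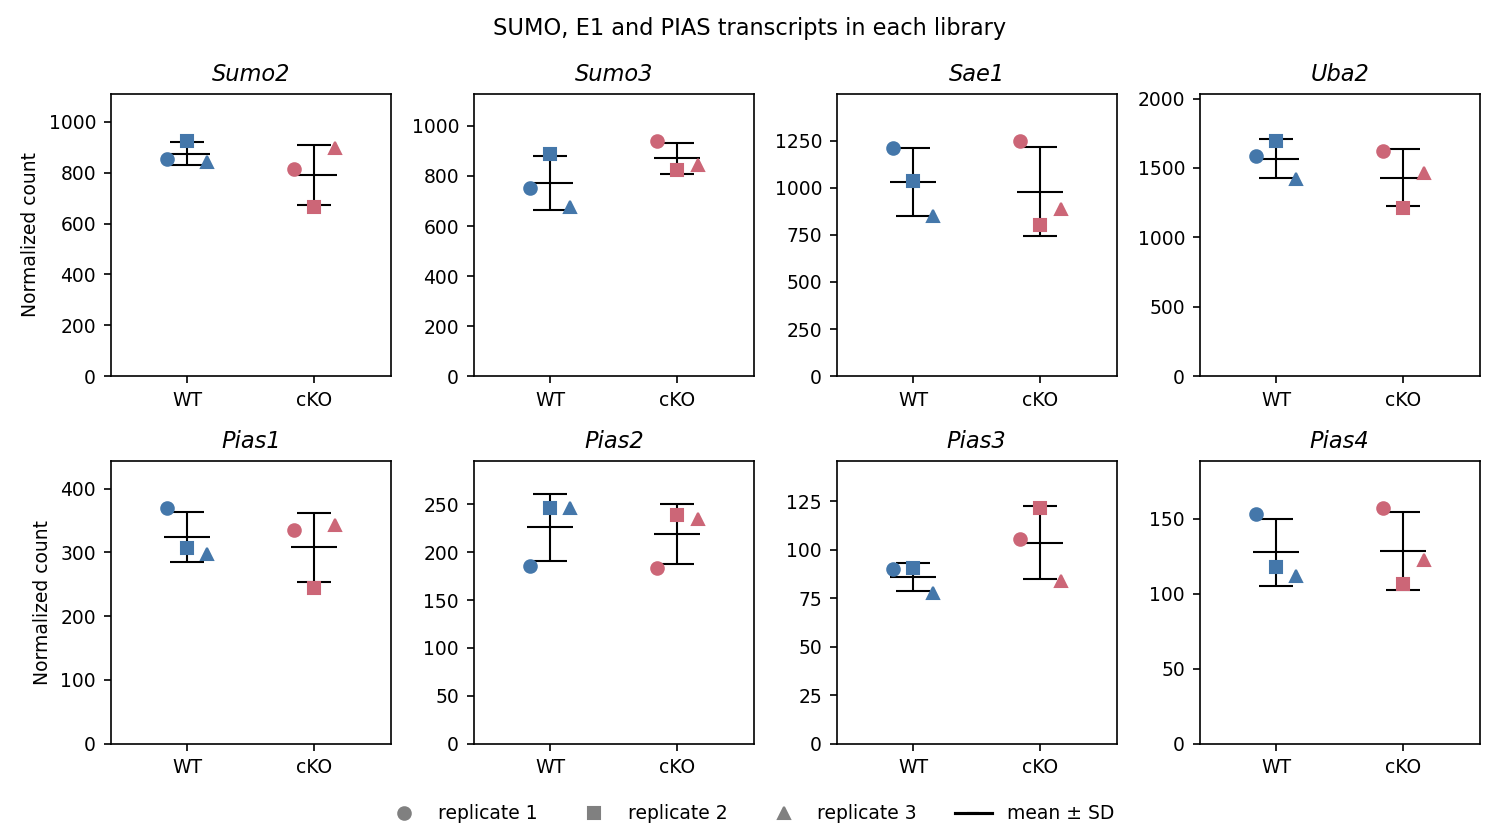
Normalized counts of the 8 genes (vertical axes, starting at 0) in 3 WT and 3 cKO libraries, with symbols for the replicate number and bars for mean ± SD. WT and cKO points overlap in every panel, and cKO replicate 2 (square) is the lowest point for Sumo2, Sae1, Uba2, Pias1 and Pias4.

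Sumo2, the more abundant of the pair per exon length, measured 855, 926 and 842 in WT and 814.5, 664 and 897 in cKO. Only cKO replicate 2 lay clearly below the WT libraries, while cKO replicate 3 lay inside their range. The means were 875 ± 45.1 and 792 ± 118 (SD, n = 3 libraries per group). The fitted fold was 0.899, with a 95% confidence interval of 0.716 to 1.13 and a limma adjusted p of 0.933.

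Sumo3, whose protein is interchangeable with SUMO2 in many reactions, measured 752, 887 and 677 in WT and 941, 826 and 844 in cKO. The cKO libraries lay close together, and WT replicate 2 fell among them. The means were 772 ± 107 and 870.2 ± 62.3. The fold was 1.13 (0.905 to 1.42, limma adjusted p = 0.930).

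The ratio of Sumo3 to Sumo2 does not depend on the scaling of a library. The WT libraries had ratios of 0.879, 0.957 and 0.803 and the cKO libraries 1.16, 1.24 and 0.941. In cKO replicates 1 and 2 the ratio lay above every WT library, and cKO replicate 3 lay just below WT replicate 2. The geometric means were 0.878 and 1.11, a log2 difference of 0.33. The exact permutation test (two-sided) gave p = 0.2, where 0.1 is the smallest that 3 against 3 libraries allow. The log2 difference was 0.40 within replicate 1 and 0.30 within replicates 2 and 3. Adding the 8 look-alike rows to Sumo2 gave 0.34. Sumo2 was highest in WT replicate 2 and lowest in cKO replicate 2, and Sumo3 highest in cKO replicate 1 and lowest in WT replicate 3.

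For the E1 subunits the libraries within a group lay further apart than the group means. Sae1, the subunit that pairs with the catalytic UBA2, measured 1208, 1034 and 848 in WT and 1249.9, 805 and 884 in cKO. Replicate 1 was the highest library of each group, and the other cKO libraries lay at or beside the low end of WT. The means were 1030.1 ± 180.0 and 979.7 ± 237, and the fold was 0.943 (0.688 to 1.29, limma adjusted p = 0.976). The sign of this difference turned without WT replicate 1 (log2 fold change 0.038) or without cKO replicate 2 (0.044).

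Uba2, which carries the cysteine that binds activated SUMO, measured 1585, 1697 and 1421 in WT and 1620.3, 1209 and 1462 in cKO. Here cKO replicates 1 and 3 lay inside the WT range and only cKO replicate 2 below it. The means were 1568 ± 139 and 1431 ± 207, with a fold of 0.909 (0.719 to 1.148, limma adjusted p = 0.942). The log2 difference was 0.032 for replicate 1 alone and -0.22 for the remaining 4 libraries.

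For Uba2 over Sae1 the ratio was 1.31, 1.64 and 1.67 in WT libraries and 1.30, 1.502 and 1.65 in cKO libraries. In both groups replicate 1 had the lowest ratio, and the groups covered nearly the same range. The log2 difference was -0.054, and the same exact permutation test gave p = 0.6. It changed sign without WT replicate 3 (0.0091) or cKO replicate 1 (0.040).

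The genes of the PIAS family were first known as inhibitors of STAT transcription factors and act as SUMO ligases through a zinc-binding domain. Pias1, a regulator of cytokine and NF-kB signalling, measured 369.5, 308 and 297 in WT and 336, 245 and 343 in cKO. Except for cKO replicate 2 the cKO libraries lay inside the WT range. The fold was 0.942 (0.710 to 1.25, limma adjusted p = 0.971). Without WT replicate 1 or cKO replicate 2 the log2 fold change turned from -0.087 to 0.0093 and 0.070.

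Pias2, known as a co-regulator of steroid hormone receptors, measured 186, 246 and 246 in WT and 183, 239 and 235 in cKO. Replicate 1 was low in both groups, and the other 4 libraries lay between 235 and 246. The fold was 0.972 (0.725 to 1.30, limma adjusted p = 0.987). Without WT replicate 2, WT replicate 3 or cKO replicate 1 the sign turned (log2 fold changes of 0.026, 0.026 and 0.082).

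Pias3, named as an inhibitor of STAT3, measured 89.98, 90.5 and 77.7 in WT and 106, 121 and 83.7 in cKO. The upper pair of cKO libraries lay above all of WT and cKO replicate 3 inside its range. The fitted fold was 1.19 (0.848 to 1.67, limma adjusted p = 0.931), with all libraries the largest of the 8. Its log2 fold change of 0.25 became 0.13 without cKO replicate 2, below the 0.22 of Sumo3 in that fit, and 0.40 without cKO replicate 3. Its values rest on 41 to 195 reads per library. The high value of cKO replicate 2 came from 64 reads, with a 95% exact Poisson interval of 93.5 to 155 normalized counts that lies above the 3 WT values and overlaps their counting intervals (72.3 to 112 for WT replicate 2). Without molecular identifiers, such intervals describe counting error alone.

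Pias4, a ligase that acts at DNA double-strand breaks, measured 153, 118 and 112 in WT and 157, 106 and 123 in cKO. As for Sae1, replicate 1 was the highest library of each group. The means were 128 ± 22.2 and 129 ± 26.0, and the fold was 1.00 (0.710 to 1.42, limma adjusted p = 0.998). The sign of a difference this near to 0 changed with the scaling: the log2 fold change was -0.073 with library totals alone and -0.023 after quantile normalization.

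**Figure D2:**
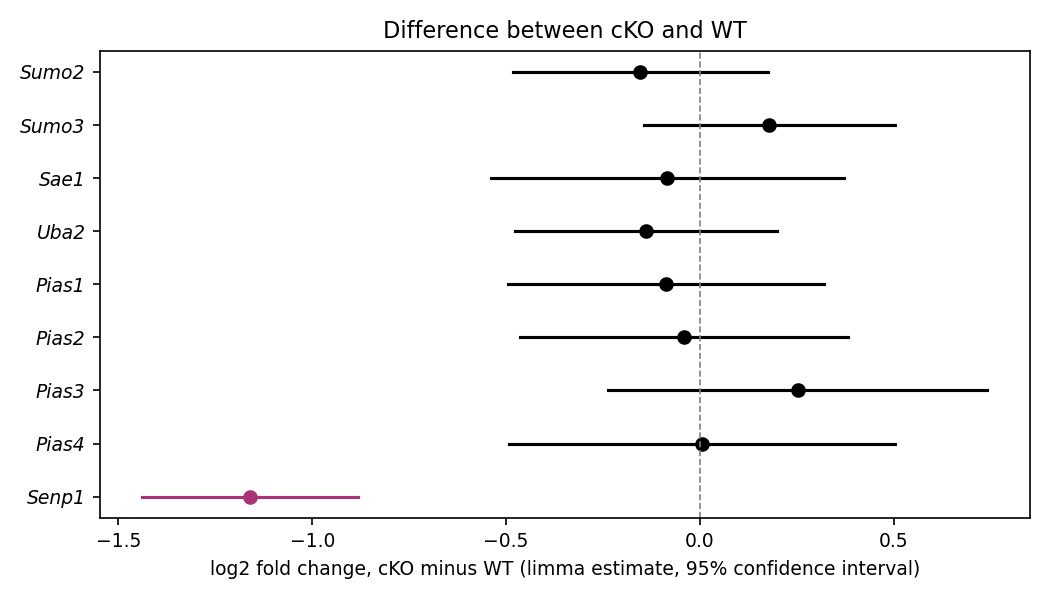
Fitted log2 fold change (cKO minus WT, horizontal axis) with 95% confidence interval for the 8 genes and for the deleted Senp1. The intervals of the 8 genes all include 0, while that of Senp1 runs from -1.44 to -0.88.

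The intervals give what these libraries leave possible for each gene. The lowest lower bound was a fold of 0.688, for Sae1, and the highest upper bound 1.67, for Pias3. For Senp1, measured in the same fit, the fold was 0.447 (0.369 to 0.542), with a limma adjusted p of 0.111 that did not pass over all genes either. Of the alternative fits, only DESeq2 on recovered reads (adjusted p 2.78e-09) and limma with a term for replicate 1 (0.016) called Senp1. The edgeR fit (0.145), limma with the replicate block (0.059) and the limma fits with single libraries left out did not. The adjusted p of Senp1 is 2.38e-09 in the authors' deposited table. In the authors' deposited table the 8 genes had log2 fold changes of -0.14 for Sumo2, 0.18 for Sumo3, -0.068 for Sae1, -0.13 for Uba2, -0.075 for Pias1, -0.052 for Pias2, 0.27 for Pias3 and 0.025 for Pias4. Each stands there at an adjusted p of 0.9996.

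Levels can be set against each other per length of exon. In normalized counts per kilobase of exon, averaged over the 6 libraries, Sumo2 was at 480.0, Sae1 at 387, Uba2 at 248, Sumo3 at 224, Pias2 at 62.0, Pias1 at 46.3, Pias4 at 34.7 and Pias3 at 24.2. The lowest of the SUMO and E1 genes in any library was Sumo3 at 185, above the highest PIAS value of 68.6 for Pias2. Neighbours in this order overlapped between libraries except for Sae1 and Uba2 and for Sumo3 and Pias2. The order of the E1 subunits depended on the exon set: with GENCODE's basic transcripts, a choice made after seeing the data, Uba2 stood at 581 and Sae1 at 395. In the same set Pias4 (49.9) and Pias1 (49.5) changed places.

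Within the PIAS family Pias2 held the largest mean share of the summed level per exon length, 37.8% ± 6.45 in WT and 36.5% ± 5.74 in cKO. Pias1 followed with 28.4% ± 2.90 and 26.8% ± 4.13, Pias4 with 20.7% ± 3.20 and 20.8% ± 3.83, and Pias3 with 13.1% ± 0.793 and 15.9% ± 3.28. For Pias2 and Pias4 the shares in replicate 1 stood apart from those of the other libraries in both groups. In replicate 1 the share of Pias2 was 30.4% in WT and 30.1% in cKO, and in the other 4 libraries it was 38.5% to 42.3%. Pias4 ran the other way, with 24.3% and 25.1% in replicate 1 and 17.7% to 19.5% elsewhere. The order below Pias2 depended on the exon set. With GENCODE's basic transcripts Pias1 held 26.3% in WT and 24.7% in cKO, and Pias4 25.7% in both. Pias2 kept the largest mean share there (33.5% and 32.2%). In replicate 1, however, Pias4 (29.9% in WT and 30.5% in cKO) exceeded Pias2 (26.5% and 26.1%).

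**Figure D3:**
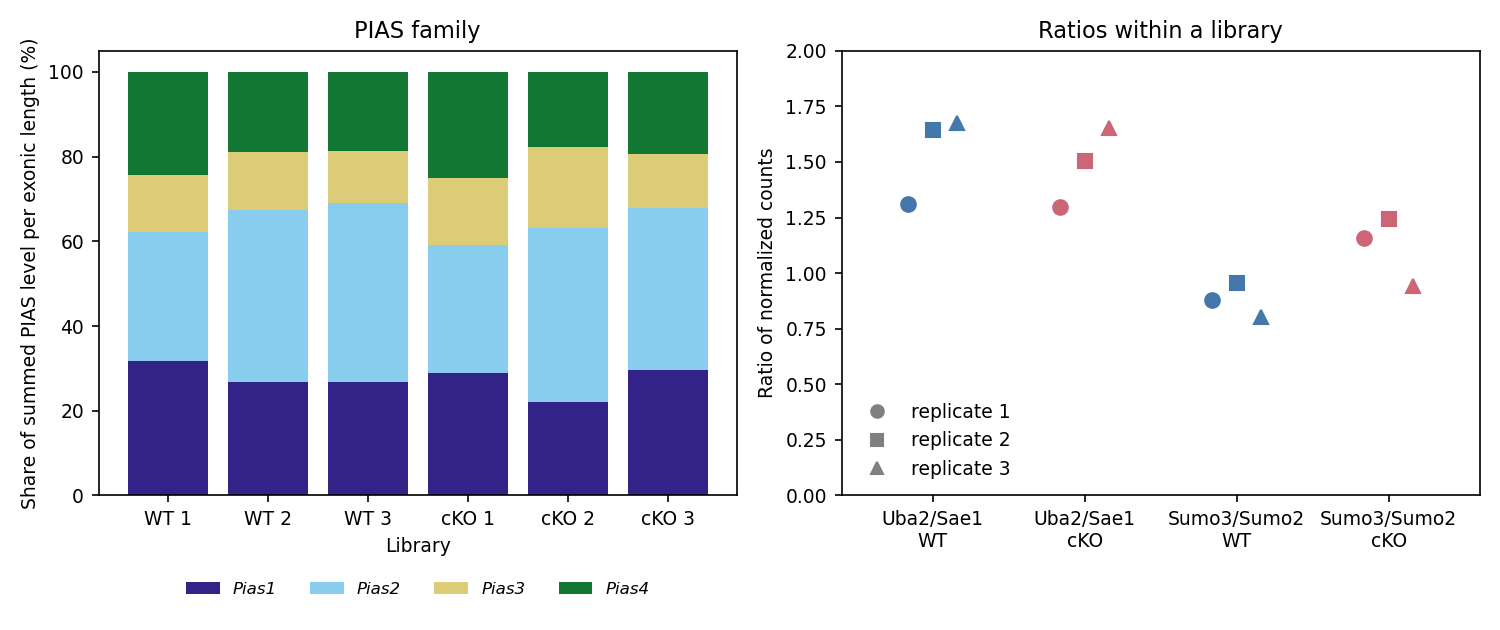
Left, share of each PIAS gene in the summed PIAS level per exonic length (%) in each library. Right, ratio of normalized counts of Uba2 to Sae1 and of Sumo3 to Sumo2 per library, with symbols for the replicate number. Replicate 1 of both groups shows the smaller Pias2 share and the lower Uba2 to Sae1 ratio, and cKO replicates 1 and 2 show Sumo3 to Sumo2 ratios above 1.

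The library that stood lowest most often was cKO replicate 2, for 5 of the 8 genes (Sumo2, Sae1, Uba2, Pias1 and Pias4). The median deviation of the 8 genes from their means over the 6 libraries was -0.28 log2 units there and -0.13 to 0.15 elsewhere. For Sumo2 and Uba2 the drop was larger than counting error. Sumo2 stood at 664 on 350 reads (95% exact Poisson interval 597 to 738), and the next library, cKO replicate 1, had an interval of 774 to 857. Uba2 stood at 1209 on 637 reads (1117 to 1307), and the next library, WT replicate 3, at 1353 to 1491. For Sae1, Pias1 and Pias4 the counting intervals of cKO replicate 2 and of the next library overlapped.

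Markers of cell division moved in part with the E1 genes. The median deviation of a list of 14 division genes, all in the table, was 0.47, 0.28 and -0.23 in the WT libraries and 0.31, -0.75 and -0.13 in the cKO libraries. In the same order Sae1 deviated by 0.29, 0.062 and -0.22 in WT and by 0.34, -0.30 and -0.16 in cKO. Uba2 deviated by 0.089, 0.19 and -0.069 in WT and by 0.12, -0.30 and -0.027 in cKO. Its highest library was WT replicate 2, while that of the division list was WT replicate 1. The same 3 libraries (both replicate 1 libraries and WT replicate 2) were above the mean for Sae1, for Uba2 and for the division list. cKO replicate 2 was lowest for each, as it was for Sumo2, Pias1 and Pias4. The summed level of the division list ranged from 25601 to 40308 normalized counts in WT and from 18506 to 34045 in cKO. The part of cell division in these values was not tested.

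cKO replicate 2 also had the highest summed levels of T cell, macrophage, naive or memory B cell and plasma cell genes. The 12 T cell genes, all in the table, summed to 939 to 1047 in WT and 813 to 2291 in cKO, with Cd3d, Cd3g and Cd8a at 0 in cKO replicate 3 and Cd8b1 at 0 in WT replicate 3. Lck, the largest of the list in each library, stood at 691 in cKO replicate 2 and 470 to 574 elsewhere. Cd3e stood at 140 in cKO replicate 2 and 5.98 to 27.1 elsewhere. The 10 macrophage genes summed to 158 to 369 in WT and 337 to 607 in cKO, with C1qc at 0 in WT replicate 3 and C1qb and C1qc at 0 in cKO replicate 3. Of the macrophage list, Lyz2 (169) and Cd68 (62.6) in cKO replicate 2 lay below cKO replicate 3 (194 and 71.5). The rest of the list was highest in cKO replicate 2. The 8 naive or memory B cell genes summed to 9997 in cKO replicate 2 and 2465 to 5862 in the other 5 libraries. The 6 plasma cell genes summed to 16139 there and 7131 to 12951 elsewhere. Jchain, Sdc1, Irf4 and Tnfrsf17 were highest there, with Jchain alone at 13478. Prdm1 (64.5) and Xbp1 (1082) were higher in WT replicate 1 (102 and 1088). Neutrophil and erythroid genes did not follow: their sums in cKO replicate 2 were 55.0 and 36.1, against highest values of 92.2 in cKO replicate 1 and 133 in cKO replicate 3. Of the GC genes, Bcl6 (1289), Gcsam (1040.1) and S1pr2 (1245) were lowest in cKO replicate 2, where the other libraries held at least 1373, 1256 and 1665. The mitochondrial share of this library was 12.3%. The part of these differences in its low Sumo2 and E1 values was not tested. Without this library the log2 fold change was -0.032 for Sumo2 and -0.022 for Uba2, in place of -0.15 and -0.14, so 1 library sets most of both differences.

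**Figure D4:**
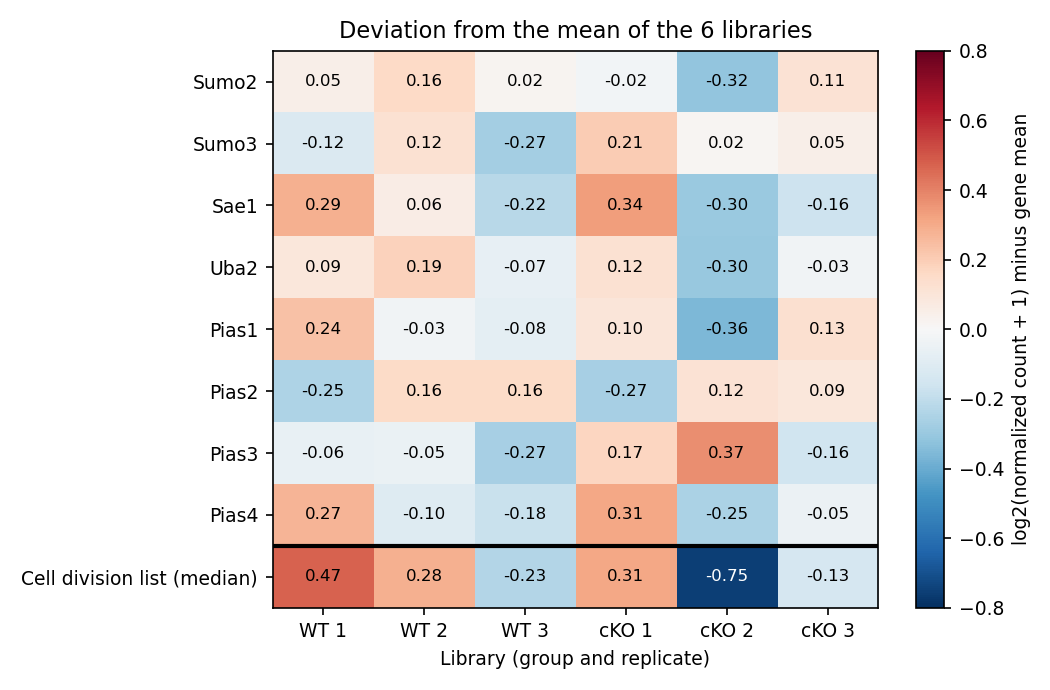
Deviation of each gene from its own mean over the 6 libraries (log2 of normalized count + 1, colour and printed value), with the median of the 14 division genes in the bottom row. cKO replicate 2 is blue for Sumo2, Sae1, Uba2, Pias1 and Pias4 and for the division list (-0.75), and red for Pias3.

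The promoters of Sumo2 and Uba2 are shown because both genes stood lowest, beyond counting error, in cKO replicate 2. Of the 8 genes, 5 were in the RefSeq promoter table (GRCm38.p6). Printed are 204 bases of each RefSeq window that lie outside GENCODE M21 exons, on the minus strand, 5′ to 3′, at chr11:115536277-115536480 for Sumo2 and chr7:34168576-34168779 for Uba2. The Sumo2 bases lie upstream of the whole GENCODE gene. Those of Uba2 lie upstream of its main transcript but inside the GENCODE gene, since another transcript starts further upstream. Capitals mark matches to the motifs searched on both strands.
Sumo2: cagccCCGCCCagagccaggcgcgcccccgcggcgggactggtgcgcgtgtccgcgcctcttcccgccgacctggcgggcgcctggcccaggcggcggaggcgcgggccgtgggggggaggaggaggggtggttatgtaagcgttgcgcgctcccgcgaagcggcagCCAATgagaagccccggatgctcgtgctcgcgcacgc
Uba2: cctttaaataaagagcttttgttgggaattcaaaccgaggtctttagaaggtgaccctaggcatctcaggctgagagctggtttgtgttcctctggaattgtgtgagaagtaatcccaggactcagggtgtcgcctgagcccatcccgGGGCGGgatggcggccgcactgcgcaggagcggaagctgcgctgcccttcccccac

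Both windows held 1 GC box (GGGCGG), also held by 25.4% of 32851 RefSeq promoter windows of the same length, and that of Sumo2 also 1 CCAAT box (CCAAT, 29.1%). None of these matches overlapped another. The letters of an E-box (CACGTG, 4.45% of windows), NRF1 (GCATGCGC, 1.47%), ETS (CCGGAAG, 4.19%), YY1 (AAGATGGC, 1.34%) and E2F (TTTCCCGC, 0.697%) motif were in neither window. A match is a description of letters and no measure of binding.

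The 8 genes lie apart in GRCm38. Sumo2 (ENSMUSG00000020738) is on chromosome 11 at 115523102 to 115536276 and Sumo3 (ENSMUSG00000020265) on chromosome 10 at 77606097 to 77618331. Both E1 genes are on chromosome 7, Sae1 (ENSMUSG00000052833) at 16320234 to 16387806 and Uba2 (ENSMUSG00000052997) at 34140688 to 34169599. Pias1 (ENSMUSG00000032405) is on chromosome 9 at 62878368 to 62987924, Pias3 (ENSMUSG00000028101) on chromosome 3 at 96696384 to 96706070 and Pias4 (ENSMUSG00000004934) on chromosome 10 at 81153266 to 81167923. Pias2 is ENSMUSG00000025423. The table counts whole genes, so exons and isoforms cannot be told apart.

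The rest of the SUMO pathway was taken from a list of 23 other genes (other E3 ligases, proteases, and readers of SUMO). By limma 0 of 23 passed over all genes, 1 of 23 had an unadjusted p under 0.05 (Senp1, beside 5.15% of all genes), and the groups did not overlap for 2 of 23, Senp1 and Zmiz2 (beside 11.6% of all genes). Without Senp1, 8 of the other 22 had positive and 14 negative fitted differences, with a median log2 fold change of -0.053. The median was -0.063 for the 8 genes, -0.035 for the 7163 genes with a mean at least that of Pias3 (4052 of them negative) and -0.0019 for all genes. Zmiz2, a PIAS-like protein with the same kind of zinc-binding domain, measured 1144, 1147 and 1053 in WT and 1203, 1359 and 1438 in cKO. Every cKO library lay above every WT library, and the log2 fold change was 0.26 ± 0.13 (SE, limma adjusted p = 0.915). Among the 9 proteases, with Senp1 counted, 7 had negative fitted differences and among the 9 other E3 ligases 5. Of all 14678 genes 7375 were negative.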

How the data were processed

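Per the submitters' processing notes, reads were handled with TopHat2, HISAT2, HISAT, SAMtools, HTSeq and DESeq2 on mm10. Versions, roles, annotation and strand setting were not given in any source used. The authors deposited 1 table with a signal per gene and library (counts divided by a size factor), the authors' log2 fold change with its standard error, a Wald score and the p-value and adjusted p-value. All values in each library were whole multiples of 1 read (tolerance 0.01 read), so reads were recovered: 1 read is worth 0.506 to 2.04 normalized counts.

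limma 3.58.1 (R 4.3.3) with a mean-variance trend was fitted to log2(value + 1) for genes whose mean reached 1 (14678 genes). The model held genotype only, over all 6 libraries, with Benjamini-Hochberg adjustment. Fold changes on this scale understate those of low genes. edgeR 4.0.16 and DESeq2 1.42.0 on recovered reads, other scalings, pseudocounts, filters, left-out libraries and a replicate block were alternatives. limma and edgeR were also run on simulated data with known changes, and the outcome is not reported here. Named are all 8 genes, Senp1, pathway genes without overlap or with p under 0.05, and the 2 genes most like each of the 8. The genes and lists were chosen with earlier results of these data known. Some genes of the lists are not reported here.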

Additional observations from a re-analysis of the deposited data

How the results depend on the processing

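No member of the 8 was called under any alternative (smallest adjusted p 0.647), and 0 had an unadjusted p under 0.05 under any. Over all genes limma called 0 (438 higher and 318 lower at an unadjusted p under 0.05), edgeR 0 (370 and 241), DESeq2 20, a term for replicate 1 gave 3 and the replicate block 1 (701 and 632). With library totals alone the unadjusted split turned (275 higher and 401 lower), and the counts rose without cKO replicate 1 (721 and 638) and fell without WT replicate 2 (192 and 151). Leaving out single libraries gave 0 adjusted calls each time. Of 137 member values under alternatives 124 kept their direction, among them all of Sumo2, Sumo3, Uba2 and Pias3. The other 13 turned, by up to -0.15 for Pias4 without cKO replicate 1. Pias4 also turned with library totals (-0.073), quantile normalization (-0.023) and replicates 2 and 3 alone (-0.011). The other filters, the replicate block and the term for replicate 1 cannot change a member's estimate. Their agreements, part of the 124, were therefore fixed in advance, and the pseudocounts hardly moved the estimates. With single libraries left out, log2 fold changes ranged from -0.27 to 0.044 for Sae1, -0.17 to 0.070 for Pias1, -0.18 to 0.082 for Pias2 and -0.15 to 0.14 for Pias4. The log2 difference of the Uba2 to Sae1 ratio ranged from -0.17 to 0.040 and that of Sumo3 to Sumo2 from 0.25 to 0.45. Where the replicate block left an estimate as it was (-0.054 and 0.33 for the ratios), only its error changed. Same-numbered libraries correlated at 0.493, 0.0545 and 0.201 in their deviations from the group means, so replicate 1 libraries deviated together most. cKO replicate 2 correlated better with WT replicate 3 (0.17) than with its own number. The labels speak of paired mice without tying numbers to pairs, so no pairing was taken. Depth limits Pias3 and Pias4 most (41 and 56 reads in their lowest libraries).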

Other observations

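For each of the 8 genes, the 2 genes with the most similar values over the 6 libraries were looked up among 6770 genes with a mean of at least 100 (Pearson correlation of log2 values, given as a description, since the highest of so many correlations over 6 points is near 1 by selection). For Sae1 the closest was the SUMO protease gene Senp3 (r = 0.9986), whose WT libraries held 606, 563 and 508 normalized counts and whose cKO libraries held 609, 495 and 521, followed by Apitd1 (0.995). For Uba2 it was Ncapg, a subunit of condensin (0.997), at 802, 909 and 636 in WT and 803, 433 and 656 in cKO, followed by Plekha5 (0.991). Pias4 was closest to the spliceosome gene Snrpg (0.998) and the GTPase gene Rhoh (0.996).

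Pias2 was closest to the pseudogene Oaz1-ps (0.998), at 66.7, 333 and 321 in WT and 66.2, 287 and 282 in cKO, and to Nptn (0.997). Both genes shared the low replicate 1 of each group with Pias2. Sumo2 was closest to Anapc4 (0.994) and Ssbp1 (0.993), Sumo3 to Ppox (0.970) and Wdr89 (0.965), Pias1 to Mrps27 (0.993) and Psma2 (0.992), and Pias3 to Aes (0.995) and Polr2h (0.982).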
